A study of Mus musculus with 20 samples.

Results

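The transcripts described here are 10 genes linked to NRF2, the transcription factor of the oxidative stress response, in the livers of mice that drank water with or without perfluorooctanoic acid (PFOA), a persistent fluorinated surfactant. The members were chosen by name, with earlier results of these data known. They are Nfe2l2, Nqo1, Srxn1, Txnrd1, Gclc, Gclm, Slc7a11, Hmox1, G6pdx and Osgin1, 10 of the 53599 gene symbols in both count tables. The 20 samples of bulk liver RNA fell into 8 groups by genotype, sex and exposure. The KO groups lacked PPARa, a nuclear receptor for fatty acids, and the hPPARa groups expressed the human receptor from a transgene, whose promoter the labels do not give, nor whether the mouse receptor was kept. Exposed mice drank 8 µM PFOA and controls drank the vehicle, with 0.5% sucrose in both waters, for 6 to 7 weeks from weaning. Every group, controls included, also ate a custom diet whose energy came 51.8% from carbohydrate, 33.5% from fat and 14.7% from protein. The hPPARa groups held 3 female and 2 male vehicle libraries and 2 female and 3 male PFOA libraries. The KO groups held 1 female and 3 male vehicle libraries and 3 libraries of each sex with PFOA. Each library is a separate sample in the labels, but the sources used here do not tie it to an animal or litter, so the p-values measure the spread between these samples.

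NRF2, encoded by Nfe2l2, is held in the cytoplasm and marked for degradation by KEAP1. Electrophiles and oxidants modify KEAP1, and NRF2 then accumulates, pairs with small MAF proteins and binds antioxidant response elements. Its targets in liver make glutathione, reduce peroxides and quinones, supply NADPH, break down heme and export conjugates. NRF2 is regulated largely at the level of the protein, which RNA counts do not measure.

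Upstream sequences of the members were read from RefSeq (build GRCm38.p6), where 8 of the 10 members had an entry. Hmox1 and Gclc had no entry there and were not searched. The 250 bases before each start were searched on both strands for TGACNNNGC, the core of the antioxidant response element, and for TGANTCAGC, the form bound by NRF2 with a small MAF protein. The motifs can overlap each other. Of the members with an entry, 6 held one of them: Srxn1 and Osgin1 held TGANTCAGC, and Txnrd1, Gclm, G6pdx and Nfe2l2 held TGACNNNGC. Of all 32851 windows of this length, 10.2% held TGACNNNGC and 1.02% held TGANTCAGC. Counted by gene, 12.2% of 27025 genes held either motif. A match of letters is a description and not evidence of binding. The windows of Srxn1, Osgin1 and Nqo1 are shown because these members moved differently with PFOA: Srxn1 and Nqo1 were higher, while Osgin1 was lower in KO males. Srxn1 lies at chr2:152105274-152105523 on the plus strand, Osgin1 at chr8:119436897-119437146 on the plus strand and Nqo1 at chr8:107403206-107403455 on the minus strand. Capitals mark the match to TGANTCAGC. It begins 45 bases before the start in Srxn1, on the strand shown, and 99 bases before the start in Osgin1, where the opposite strand reads TGAGTCAGC. The Nqo1 window held no match to either motif, and sequence further upstream was not searched.
Srxn1: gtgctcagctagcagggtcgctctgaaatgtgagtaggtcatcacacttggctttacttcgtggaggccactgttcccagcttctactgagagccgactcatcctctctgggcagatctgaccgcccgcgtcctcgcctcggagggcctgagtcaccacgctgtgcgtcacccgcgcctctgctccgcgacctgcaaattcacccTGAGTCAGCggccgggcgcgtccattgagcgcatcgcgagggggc
Osgin1: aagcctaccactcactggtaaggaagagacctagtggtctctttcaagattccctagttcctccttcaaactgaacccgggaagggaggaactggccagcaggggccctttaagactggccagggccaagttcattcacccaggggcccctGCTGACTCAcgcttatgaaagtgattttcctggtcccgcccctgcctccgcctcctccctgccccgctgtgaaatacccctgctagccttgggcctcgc
Nqo1: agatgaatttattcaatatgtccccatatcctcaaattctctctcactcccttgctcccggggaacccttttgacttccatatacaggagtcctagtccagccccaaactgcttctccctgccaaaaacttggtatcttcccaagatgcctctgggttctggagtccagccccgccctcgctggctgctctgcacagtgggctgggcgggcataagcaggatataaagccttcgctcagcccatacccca

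Library totals ran from 14973673 to 17953860 counts. Values are CPM, counts scaled to a common library size, and differences are log2 fold changes with a standard error (SE). A gene is called where edgeR's quasi-likelihood test gave an adjusted p below 0.05 over all genes tested. Hepatocyte transcripts were abundant in every library, with 7 markers summing to 65681 to 206303 CPM. In KO, 3 libraries carried low levels of transcripts of the other sex. Ddx3y, from the Y chromosome, was at 1.86 CPM in KO female vehicle replicate 1 and 4.07 CPM in KO female PFOA replicate 2, against at most 0.415 CPM in the other female libraries. Xist, transcribed from the inactive X, was at 30.8 CPM in KO male PFOA replicate 2, against at most 4.40 CPM in the other male libraries. KO female vehicle replicate 1 also held bile duct transcripts: 5 cholangiocyte markers summed to 84.8 CPM there and to 1.74 to 11.9 CPM in the other 19 libraries. It is the single vehicle library of KO females, and KO results are therefore given with and without these libraries where they differ. Ppara counts ran from 17.0 to 39.6 CPM in hPPARa livers and from 8.42 to 25.1 CPM in KO livers. These ranges overlap, so the Ppara row does not check the genotype labels.

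PFOA raised Nqo1, Srxn1 and Gclc in livers of both genotypes, by 2.17- to 2.67-fold in hPPARa and by 1.97- to 2.48-fold in KO. Hmox1 was also called higher in KO livers. Txnrd1, Gclm, G6pdx, Osgin1 and Nfe2l2 itself passed the test in neither genotype, and Slc7a11 was too low to be tested. In hPPARa livers 3 of the 9 tested members were called, all higher, beside 22.6% of all genes tested (12.8% higher and 9.76% lower). In KO livers 4 of 9 were called, all higher, beside 13.8% of all genes (7.41% higher and 6.36% lower). The median log2 fold change of the 9 members was 0.25 in hPPARa and 0.26 in KO, beside -0.01 and -0.02 over all genes tested.

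**Figure D1:**
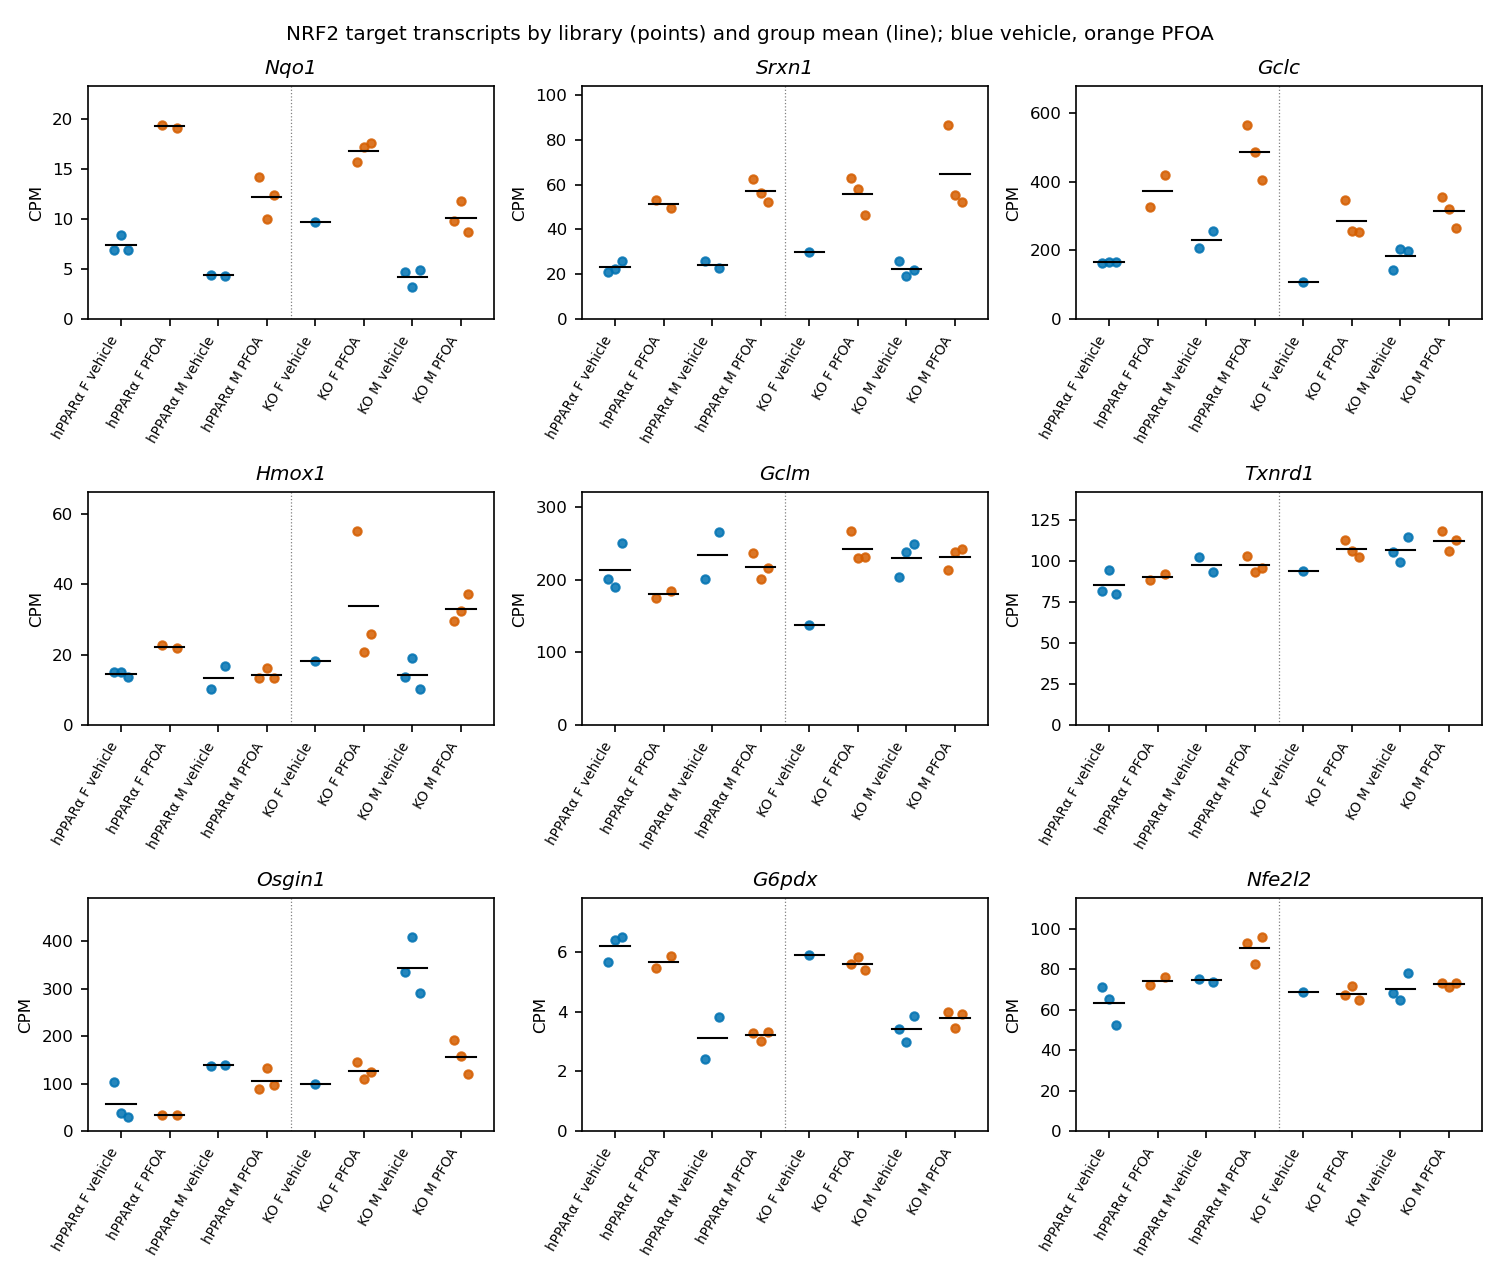
Each panel plots 1 member in CPM (y axis, from 0) by group (x axis), with points for libraries, lines for group means, blue for vehicle and orange for PFOA. Nqo1, Srxn1 and Gclc sit higher with PFOA within each sex and genotype, while Txnrd1 and G6pdx overlap over the sexes in both genotypes.

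Nfe2l2, which encodes NRF2, differed little. In hPPARa females it stood at 71.4, 65.4 and 52.6 CPM on vehicle and at 72.2 and 76.1 CPM with PFOA. In hPPARa males it stood at 75.3 and 73.7 CPM on vehicle and at 92.9, 82.6 and 96.0 CPM with PFOA. The PFOA libraries lay above the vehicle libraries within each sex of this genotype, as for 27.6% of all genes in females and 20% in males, but the sexes together overlapped. The log2 fold change of 0.25 (SE 0.10) had an adjusted p of 0.073 in edgeR's test. Without hPPARa female vehicle replicate 1 it was 0.30 with an adjusted p of 0.0342. In KO livers Nfe2l2 ran from 64.7 to 78.1 CPM on vehicle and from 64.7 to 73.3 CPM with PFOA, a log2 fold change of 0.02 (SE 0.08) by edgeR, adjusted p 0.894.

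Nqo1 encodes a quinone reductase that is a standard readout of NRF2. In hPPARa females it was at 6.89, 8.40 and 6.92 CPM on vehicle and at 19.4 and 19.1 CPM with PFOA. In hPPARa males it was at 4.42 and 4.36 CPM on vehicle and at 14.2, 9.98 and 12.4 CPM with PFOA. Every PFOA library of this genotype exceeded every vehicle library, as for 8.63% of all genes tested. The rise was 1.42 on the log2 scale (SE 0.12), or 2.67-fold, with an adjusted p of 4.59e-06 in edgeR's test.

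Nqo1 was at 9.72 CPM in the KO female vehicle library and at 15.7, 17.2 and 17.6 CPM in KO females with PFOA. KO males held 4.68, 3.18 and 4.92 CPM on vehicle and 9.80, 11.8 and 8.71 CPM with PFOA. The KO PFOA libraries lay above within each sex, as for 32.4% of all genes in females and 16% in males, but the KO female vehicle library lay above 1 male PFOA library. Nqo1 rose by 1.07 on the log2 scale (SE 0.15), or 2.11-fold, adjusted p 0.000664 by edgeR. Without KO female vehicle replicate 1 the rise was 1.25, and without the 3 libraries with transcripts of the other sex it was 1.12 (adjusted p 0.014).

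Srxn1 encodes sulfiredoxin, which repairs over-oxidized peroxiredoxins. In hPPARa livers its vehicle libraries held 21.2, 22.5 and 26.0 CPM in females and 25.8 and 22.6 CPM in males. With PFOA they held 53.3 and 49.7 CPM in females and 62.3, 56.2 and 52.3 CPM in males. No vehicle library reached a PFOA library, as for 8.63% of all genes tested in hPPARa. The rise was 1.19 on the log2 scale (SE 0.09), or 2.28-fold, adjusted p 1.89e-06 by edgeR.

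In KO livers Srxn1 was at 29.9 CPM in the female vehicle library and at 25.8, 19.3 and 22.0 CPM in male vehicle libraries. With PFOA it was at 62.8, 58.0 and 46.3 CPM in KO females and at 86.6, 55.2 and 52.3 CPM in KO males. Here too no vehicle library reached a PFOA library, as for 5.67% of all genes tested in KO. KO male PFOA replicate 1, at 86.6 CPM, was the highest of the 20 libraries. Srxn1 rose by 1.31 on the log2 scale (SE 0.19), or 2.48-fold, adjusted p 0.00141 by edgeR, and by 1.12 without that library.

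Txnrd1 encodes the cytosolic thioredoxin reductase, the NADPH-dependent enzyme that keeps thioredoxin reduced. Its libraries ran from 79.8 to 102 CPM on vehicle and from 88.5 to 103 CPM with PFOA in hPPARa, and from 93.8 to 115 CPM and 102 to 118 CPM in KO. Groups overlapped in both genotypes. The log2 fold change was 0.04 (95% interval -0.14 to 0.22) in hPPARa and 0.11 (-0.06 to 0.29) in KO.

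Gclc encodes the catalytic subunit of glutamate-cysteine ligase, the rate-limiting enzyme of glutathione synthesis. In hPPARa females it stood at 163, 167 and 166 CPM on vehicle and at 327 and 419 CPM with PFOA. In hPPARa males it stood at 206 and 256 CPM on vehicle and at 565, 486 and 404 CPM with PFOA. All PFOA libraries exceeded all vehicle libraries, as for 8.63% of all genes tested in hPPARa. The rise was 1.12 on the log2 scale (SE 0.12), or 2.17-fold, adjusted p 2.69e-05 by edgeR.

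In KO livers Gclc was at 107 CPM in the female vehicle library and at 345, 258 and 254 CPM in females with PFOA. KO males held 144, 204 and 199 CPM on vehicle and 354, 321 and 265 CPM with PFOA. The KO PFOA libraries all lay above the KO vehicle libraries, as for 5.67% of all genes tested in KO. Gclc rose by 0.98 on the log2 scale (SE 0.17), or 1.97-fold, adjusted p 0.00229 by edgeR. KO female vehicle replicate 1 was the lowest of the 20 libraries. Without it the rise was 0.78 (adjusted p 0.0159), and without the 3 libraries with transcripts of the other sex it was 0.76 and missed the threshold, adjusted p 0.07.

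Gclm encodes the modifier subunit of the same ligase, which raises the catalytic subunit's efficiency. Unlike Gclc it passed the test in neither genotype. In hPPARa it was at 200, 189 and 250 CPM in female and 201 and 265 CPM in male vehicle libraries, and at 175 and 184 CPM in female and 236, 201 and 216 CPM in male PFOA libraries. The hPPARa groups overlapped over both sexes, with a log2 fold change of -0.18 (95% interval -0.42 to 0.07). In KO females Gclm was at 138 CPM on vehicle and at 267, 229 and 231 CPM with PFOA. In KO males it was at 204, 237 and 249 CPM on vehicle and at 213, 238 and 242 CPM with PFOA. The KO log2 fold change was 0.26 (-0.05 to 0.57). It was 0.01 without KO female vehicle replicate 1, which was again the lowest of the 20 libraries.

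Slc7a11 encodes the cystine importer that supplies cysteine for glutathione. It had 0 to 6 counts in each library, at most 0.365 CPM, and did not pass the filter on low counts in any comparison. A change in Slc7a11 was not detectable at this depth.

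Hmox1 encodes heme oxygenase, which breaks heme down to biliverdin, carbon monoxide and iron. In hPPARa females it was at 15.2, 14.98 and 13.6 CPM on vehicle and at 22.6 and 22.0 CPM with PFOA. In hPPARa males it was at 10.1 and 16.8 CPM on vehicle and at 13.5, 16.2 and 13.3 CPM with PFOA. In females the PFOA libraries lay above the vehicle libraries, as for 27.6% of all genes tested, and the male groups overlapped. The hPPARa log2 fold change was 0.35 (SE 0.14), adjusted p 0.0953 by edgeR. Without hPPARa male vehicle replicate 2 it was 0.57, adjusted p 0.00352.

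In KO livers Hmox1 was at 18.1 CPM in the female vehicle library and at 55.1, 20.8 and 25.8 CPM in females with PFOA. KO males held 13.6, 19.1 and 10.3 CPM on vehicle and 29.6, 32.3 and 37.1 CPM with PFOA. Every KO PFOA library lay above every KO vehicle library, as for 5.67% of all genes tested, though KO female PFOA replicate 2 did so narrowly. Hmox1 rose by 1.10 on the log2 scale (SE 0.30), or 2.14-fold, adjusted p 0.0451 by edgeR. The call was lost without KO female vehicle replicate 1 and without any of the 6 KO male libraries, at log2 fold changes of 0.97 to 1.23 and adjusted p of 0.0519 to 0.1.

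In KO livers macrophage transcripts moved with Hmox1, which macrophages also express. The summed level of 11 Kupffer cell and macrophage markers was 166 to 366 CPM in KO vehicle livers and 325 to 545 CPM in KO PFOA livers. It was 177 to 537 CPM in hPPARa vehicle livers and 154 to 417 CPM in hPPARa PFOA livers. In KO 3 of the 11 were called, all higher, beside 7.41% of all genes called higher. They were Adgre1 at 0.98, Cd5l at 0.67 and Timd4 at 0.65 on the log2 scale. In hPPARa 5 of the 11 were called, all lower, beside 9.76% of all genes called lower, with Marco at -1.74 and C1qa at -0.51. None of the 11 was at 0 in a whole group. KO female PFOA replicate 1 had both the highest Hmox1 and the highest marker sum of the 20 libraries, at 55.1 and 545 CPM. In hPPARa female vehicle replicate 2 the marker sum was nearly as high, at 537 CPM, with Hmox1 at 14.98 CPM. The mean marker sum of hPPARa females was 465 CPM on vehicle and 374 CPM with PFOA, while their Hmox1 was higher with PFOA. The part of these markers in the Hmox1 result was not tested. In bulk tissue, more cells of a type and more RNA per cell cannot be told apart.

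**Figure D2:**
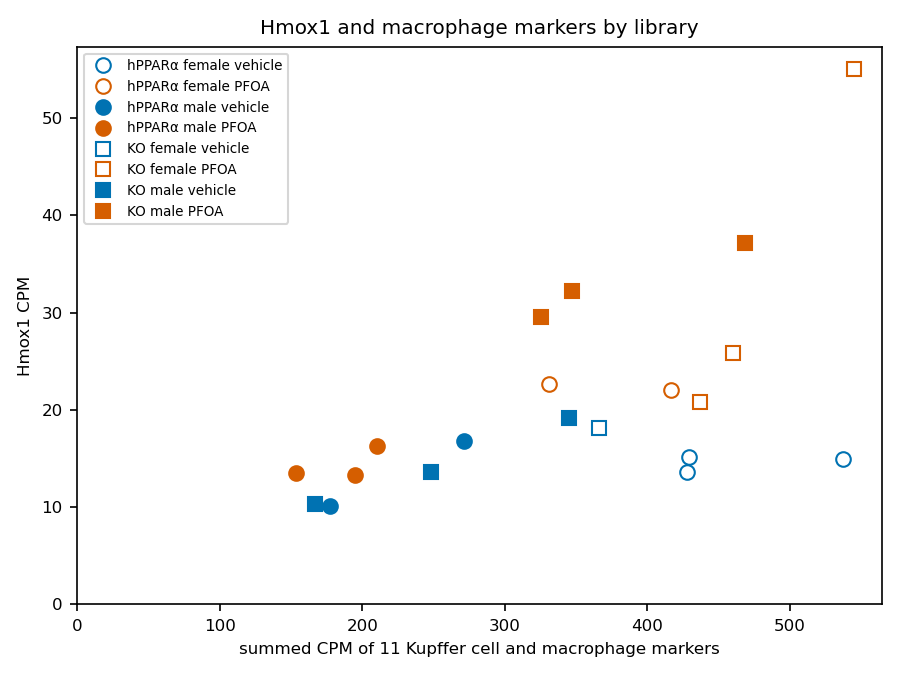
Hmox1 in CPM (y axis) is plotted against the summed CPM of 11 Kupffer cell and macrophage markers (x axis), 1 point per library, with genotype, sex and exposure marked as in the legend. The 6 KO PFOA libraries lie at 325 to 545 CPM of markers and at 20.8 to 55.1 CPM of Hmox1.

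Among the other cell types, 7 neutrophil markers summed to 0.757 to 3.45 CPM in KO vehicle livers and to 90.0 to 327 CPM in KO PFOA livers. This sum was nearly all S100a8, a calprotectin subunit, which held 87.9 to 325 CPM in KO PFOA livers. The granule genes Mpo and Elane reached at most 0.117 and 0.0598 CPM there and Retnlg at most 0.267 CPM. Ly6g was at 0 in all 6 libraries. S100a9 and Csf3r reached at most 2.03 and 1.76 CPM there and were called in neither genotype. S100a8 was called higher in both genotypes, by 4.60 in hPPARa and 8.86 in KO on the log2 scale. Over all genes tested, 12.8% were called higher and 9.76% lower in hPPARa, and 7.41% and 6.36% in KO. Beside these shares, hepatocyte markers were called lower for 5 of 7 in hPPARa and 2 of 7 in KO. Of 6 endothelial markers 4 were called higher in hPPARa and 2 in KO, led by Lyve1 at 2.10 and 1.84. Their sums overlapped, at 167 to 222 CPM on vehicle and 181 to 251 CPM with PFOA in hPPARa and 143 to 196 and 159 to 196 CPM in KO. Of 6 stellate cell and fibroblast markers 2 were called lower in each genotype, Des at -0.69 and -1.19 and Dcn at -0.63 and -0.46. In KO 4 of 5 cholangiocyte markers were called lower, with the highest sum in KO female vehicle replicate 1. The part of these cell types in the members' results was not tested.

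G6pdx encodes glucose-6-phosphate dehydrogenase, the entry step of the pentose phosphate pathway and a source of NADPH. Its reads may be shared with the near-identical retrogene G6pd2, so its level is uncertain. It ran from 2.40 to 6.51 CPM on vehicle and from 3.04 to 5.85 CPM with PFOA in hPPARa, and from 2.98 to 5.89 CPM and 3.47 to 5.82 CPM in KO. The log2 fold change was -0.05 (95% interval -0.39 to 0.28) in hPPARa and 0.07 (-0.24 to 0.38) in KO.

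Osgin1, an oxidative stress induced growth inhibitor, was called higher with PFOA in neither genotype. In hPPARa females it was at 105, 38.5 and 30.5 CPM on vehicle and at 35.1 and 33.7 CPM with PFOA. In hPPARa males it was at 137 and 140 CPM on vehicle and at 89.7, 133 and 96.6 CPM with PFOA. The log2 fold change was -0.57 (SE 0.34), adjusted p 0.267 by edgeR. Replicate 1 of the female vehicle group was the highest of the 5 female libraries of this genotype, and without it the value was -0.22, adjusted p 0.258.

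In KO males Osgin1 was at 335, 410 and 291 CPM on vehicle and at 192, 159 and 121 CPM with PFOA. In KO females it was at 99.6 CPM on vehicle and at 145, 110 and 125 CPM with PFOA. The male PFOA libraries thus lay below the male vehicle libraries, as for 15.4% of all genes. The female PFOA libraries lay above the single female vehicle library, as for 32.4% of all genes. The KO effect over both sexes was -0.70 (SE 0.28), adjusted p 0.131 by edgeR. It was -1.13 without KO female vehicle replicate 1, adjusted p 0.00325, and -1.14 without the 3 libraries with transcripts of the other sex, adjusted p 0.0201.

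The genotypes were then compared directly, as the KO effect minus the hPPARa effect, to ask whether the response of each target differed with the receptor. In edgeR's test 0 of the 9 members were called, 2 had an unadjusted p below 0.05, and DESeq2 also called 0. Over all genes 1.17% were called. The difference was -0.35 for Nqo1 (95% interval -0.75 to 0.06), 0.12 for Srxn1 (-0.31 to 0.54) and -0.14 for Gclc (-0.57 to 0.29). The members with an unadjusted p below 0.05 were Hmox1, at 0.74 (0.02 to 1.46), and Gclm, at 0.43 (0.04 to 0.82), with adjusted p of 0.342 and 0.311. With 1 library left out at a time, the difference ran from 0.53 to 0.88 for Hmox1 and from 0.18 to 0.52 for Gclm. As given above, the KO effect of Gclm was 0.01 without KO female vehicle replicate 1. A missed threshold does not show that the responses were equal.

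**Figure D3:**
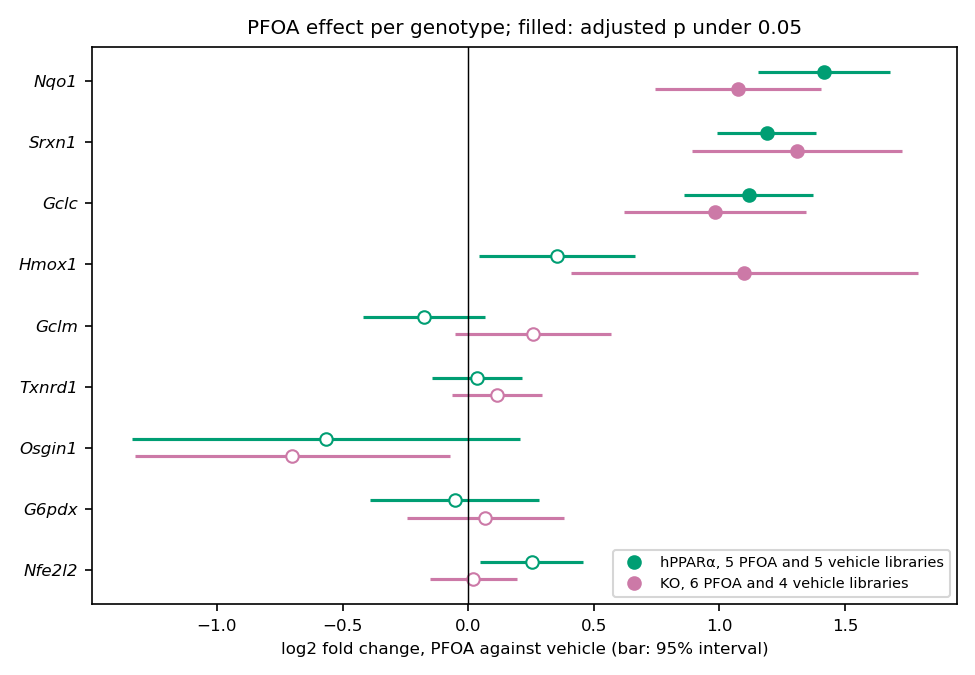
Log2 fold change of each tested member with PFOA (x axis) in hPPARa and KO livers, as points with 95% intervals. Filled points were called by edgeR: Nqo1, Srxn1 and Gclc in both genotypes and Hmox1 in KO, where its interval runs from 0.41 to 1.79.

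Within a sex, Nqo1, Srxn1 and Gclc were called higher in the 3 exposure comparisons with more than 1 vehicle library. In hPPARa males 3 of 9 members were called, beside 8.2% of all genes (5.3% higher): Nqo1 rose by 1.48, Srxn1 by 1.23 and Gclc by 1.07 on the log2 scale. In hPPARa females 4 of 9 were called, beside 18.4% (10.5% higher), with Nqo1 at 1.37, Srxn1 at 1.14, Gclc at 1.16 and Hmox1 at 0.60. The Hmox1 call in hPPARa females, adjusted p 0.0372 by edgeR, was lost without any of the 5 hPPARa female libraries, at adjusted p of 0.0678 to 0.195.

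In KO males 4 of 9 members were called, beside 9.1% of all genes (5.63% higher and 3.46% lower). Srxn1 rose by 1.54, Nqo1 by 1.25 and Gclc by 0.79, and Osgin1 fell by 1.12 on the log2 scale (adjusted p 0.00308 by edgeR). The Gclc call in KO males was lost without KO male PFOA replicate 1 or 2 or vehicle replicate 1, at adjusted p of 0.052 to 0.0618. In KO females, with 1 vehicle library whose spread was taken from the other groups, 2 of 9 were called beside 5.31% (2.33% higher): Gclc at 1.40 and Gclm at 0.80 on the log2 scale. That vehicle library was the lowest of the 20 for both genes, so these calls rest on it and have no replicate check. Nqo1 at 0.78 and Srxn1 at 0.88 had adjusted p of 0.0912 and 0.125 by edgeR. Without KO male PFOA replicate 1 the female Srxn1 value was 0.89 with an adjusted p of 0.0297, and without KO male vehicle replicate 2 the female Nqo1 value was 0.78 with an adjusted p of 0.0489.

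The male and female effects were also compared with each other. In hPPARa edgeR called 0 members, with 0 at an unadjusted p below 0.05, beside 0.104% of all genes; DESeq2 also called 0. In KO edgeR called 0 members and DESeq2 called 2, beside 0.241% of all genes by edgeR. The 2 members with an unadjusted p below 0.05 in KO were Osgin1, at -1.46 for the male minus the female effect (SE 0.33, adjusted p 0.123), and Gclm, at -0.79 (SE 0.21, adjusted p 0.183). Both values rest on the single KO female vehicle library.

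Some members differed between the sexes, tested over both exposures together in the model with exposure and sex. Nqo1 was lower in males in hPPARa, by -0.69 on the log2 scale (SE 0.12, adjusted p 0.00637 by edgeR), and in KO, by -0.88 (SE 0.14, adjusted p 0.00665). G6pdx was lower in males by -0.89 (SE 0.16) in hPPARa and by -0.64 (SE 0.14, adjusted p 0.0253) in KO. These 2 of 9 members were the calls in each genotype, beside 3.48% of all genes in hPPARa (1.94% lower) and 3.41% in KO (2.15% lower). Both KO calls were lost without KO female vehicle replicate 1, at adjusted p of 0.0713 for Nqo1 and 0.191 for G6pdx, and the G6pdx call also without KO male PFOA replicate 2 (0.0707) or KO male vehicle replicate 1 (0.0517). Osgin1 was at 1.45 for males minus females in hPPARa (SE 0.34, adjusted p 0.0609), and at 1.81 with an adjusted p of 2.75e-05 without hPPARa female vehicle replicate 1. Gclc was at 0.44 (SE 0.12, adjusted p 0.0599), and at 0.48 without hPPARa male PFOA replicate 3, adjusted p 0.0404. Hmox1 was at -0.38 (adjusted p 0.186), and at -0.61 without hPPARa male vehicle replicate 2, adjusted p 0.0126.

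On vehicle, Osgin1 was the 1 member of 9 called between KO and hPPARa, beside 3.77% of all genes (2% higher). It was higher in KO by 1.35 on the log2 scale (SE 0.35, adjusted p 0.0435 by edgeR). The model held all 20 libraries and a single PFOA effect per genotype for both sexes, so PFOA libraries also shape this value. In KO, Osgin1 moved in opposite directions with PFOA in males and females, as given above. Male vehicle libraries held 291 to 410 CPM in KO and 137 and 140 CPM in hPPARa, while the KO female library, at 99.6 CPM, lay inside the hPPARa female range of 30.5 to 105 CPM. Removal of a single library ended the call for 16 of the 20 libraries, at log2 values of 1.18 to 1.37 and adjusted p of 0.0511 to 0.0902. Genotype is also the table each library came from, and strain or batch differences between them cannot be told apart from genotype.

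The wider pathway was followed in 57 further genes in 9 lists. The lists include regulators of NRF2, other antioxidant enzymes and ATF4 with its targets, so pooled counts are not of NRF2 targets alone. In hPPARa livers 24 of the 55 tested were called higher and 2 lower, beside 12.8% and 9.76% of all genes. In KO livers 22 of 57 were called higher and 2 lower, beside 7.41% and 6.36%. Their median log2 fold change was 0.32 in hPPARa and 0.36 in KO, beside -0.01 and -0.02 over all genes tested. The 3 efflux pumps of conjugates were all called higher in both genotypes. Abcc3, which exports glucuronides to blood, rose from a mean of 68.6 to 695 CPM in hPPARa and from 103 to 853 CPM in KO, by 3.66 (SE 0.38) and 3.01 (SE 0.24) on the log2 scale. Abcc4, another basolateral pump, rose by 3.09 and 1.84, and Abcc2, the canalicular pump, by 0.35 and 0.78. In hPPARa the Abcc2 call was lost in 7 of 10 removals of 1 library, at adjusted p up to 0.106.

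Conjugating and reducing enzymes were called higher for 6 of 13 tested in hPPARa and 9 of 14 in KO. Gstm3, a glutathione transferase, rose from a mean of 63.6 to 529 CPM in hPPARa and from 39.0 to 1666 CPM in KO. Its rise was 2.91 (SE 0.26) and 5.50 (SE 0.59) on the log2 scale. Gstm1, of the same family, rose by 1.08 and 2.05, and reads shared between Gstm genes make single values uncertain. Ephx1, the microsomal epoxide hydrolase, rose by 1.70 and 1.84. Aox1, aldehyde oxidase, rose by 1.12 and 1.45. Cbr1, a carbonyl reductase, rose by 0.70 in KO and was at -0.31 in hPPARa, adjusted p 0.124 by edgeR.

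Of the NADPH suppliers 3 of 4 were called higher in hPPARa: Me1, malic enzyme, 2.23-fold, Pgd 1.53-fold and Tkt 1.34-fold, the last pair in the pentose phosphate pathway. In KO edgeR called 0 of the 4, with 2 at an unadjusted p below 0.05, and their median log2 fold change was 0.46 beside 0.51 in hPPARa. Among other glutathione genes Gsr, glutathione reductase, rose by 0.59 in hPPARa and by 0.50 in KO, where the call was lost without KO female vehicle replicate 1 (adjusted p 0.0611). Slc3a2, the partner chain of the cystine importer, and Ggct rose by 0.40 and 0.62 in hPPARa. The calls of Slc3a2 and Ggct were lost in 6 and 8 of 10 removals of 1 library. Gpx2, a glutathione peroxidase of gut and bile duct, was called lower in KO at -4.52. That value rests on KO female vehicle replicate 1, at 2.02 CPM beside at most 0.17 CPM in the other 19 libraries, the library with the bile duct transcripts.

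Of 11 regulators and partners of NRF2, 4 were called higher and 2 lower in hPPARa, and 3 higher and 1 lower in KO. Nfe2l1, the related factor NRF1, rose by 0.83 (SE 0.09) in hPPARa and by 0.87 (SE 0.09) in KO. Sqstm1, the autophagy adaptor p62 that binds KEAP1 and is itself an NRF2 target, rose by 0.71 in each genotype. Keap1 rose by 0.31 in hPPARa. Rbx1, a subunit of the KEAP1 ubiquitin ligase, fell by 0.37 in hPPARa and lost its call in 2 of 10 removals of 1 library. Mafg, a small MAF partner, fell by 0.46 in hPPARa and by 0.48 in KO. Its call was lost in 3 of 10 removals in hPPARa, and in KO without KO female vehicle replicate 1 (adjusted p 0.0555). Gsk3b, a kinase that marks NRF2 for degradation, rose by 0.36 in KO, a call lost in 3 of 10 removals.

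In 3 of the remaining lists, of 3 to 6 genes each, at most 1 gene was called in a genotype, beside 22.6% of all genes in hPPARa and 13.8% in KO. Txn1, thioredoxin, rose by 0.59 in KO, the 1 call of 3 in its list. In heme and iron handling, Fech, ferrochelatase, rose by 0.38 in hPPARa, and Fth1, the ferritin heavy chain, by 0.40 in KO, each 1 of 5. Their calls were lost in 7 and 3 of 10 removals of 1 library. Gpx4, which reduces lipid peroxides, rose by 0.47 and 0.45, the 1 call of 6 among other antioxidant enzymes in each genotype. ATF4, a stress factor that shares targets with NRF2, had 3 of 6 listed genes called higher in each genotype. Trib3 rose by 1.99 in hPPARa and 3.19 in KO, Asns, asparagine synthetase, by 3.20 in hPPARa, Sesn2 by 0.75 in hPPARa, and Ddit3 by 1.90 and Atf4 by 0.40 in KO, where the Atf4 call was lost in 5 of 10 removals. When the 3 KO libraries that held the other sex's transcripts were left out, 14 of the further genes were called in KO. Among the genes named here, the KO calls of Aox1, Gsr, Txn1, Fth1, Mafg, Gsk3b, Gpx4, Trib3 and Atf4 were then lost, at adjusted p of 0.0626 to 0.292.

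**Figure D4:**
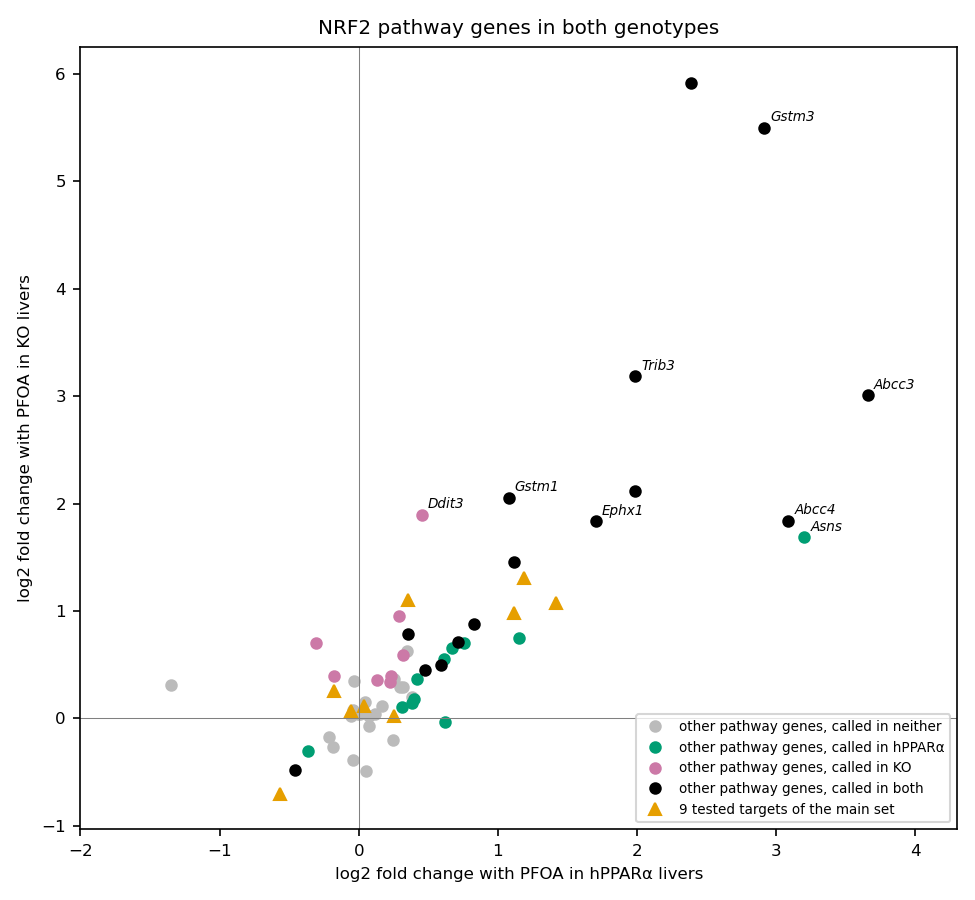
Log2 fold change with PFOA in KO livers (y axis) against hPPARa livers (x axis) for the pathway genes tested in both, with colours for the calls and triangles for the 9 tested members. Abcc3, Abcc4 and Gstm3 are among the genes far to the upper right, with 3.66, 3.09 and 2.91 in hPPARa. Ephx1 lies nearer the centre, at 1.70. Genes not named in the text are plotted without labels, whatever their position.

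In the direct comparison of genotypes 5 of the 57 further genes were called, beside 1.17% of all genes tested. Cbr1 was at 1.01 for the KO minus the hPPARa effect (SE 0.19, adjusted p 0.0119 by edgeR). Its effects within a genotype were -0.31 in hPPARa, which was not called, and 0.70 in KO. Gstm3 was at 2.58 (SE 0.56), Ddit3 at 1.44 (SE 0.35) and Atf4 at 0.57 (SE 0.14), with adjusted p of 0.0387, 0.0488 and 0.0423. Without the 3 libraries with transcripts of the other sex these last values were 2.80, 1.53 and 0.63, with adjusted p of 0.146, 0.145 and 0.141. Removal of 1 library ended the call of Gstm3 for 14 of the 20 libraries, and those of Ddit3 and Atf4 for 15 each, at adjusted p up to 0.0887, 0.143 and 0.124. The Cbr1 call held in all 20 removals. The fifth was Gpx2, at -6.39, which rests on the same KO female vehicle library and lost its call in 10 of 19 other removals.

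Across the 20 libraries the members did not form a single pattern. Over the 36 pairs of tested members Pearson's r of log2 CPM ran from -0.64 to 0.78 with a median of 0.22, as a description of libraries that share exposure, sex and genotype. The highest values were 0.78 for Nqo1 with Srxn1 and 0.76 for Srxn1 with Gclc. With group means removed, r ran from -0.50 to 0.52 and 0 pairs exceeded 0.7. Among 11639 genes, those most like Nqo1 were Psd4, Fermt1, Abcc4, Htatip2 and Ctsd, with r of 0.935 to 0.910. Those most like Srxn1 were the cytochrome P450 genes Cyp3a11, Cyp2c55 and Cyp2b10, with Prss8 and Gstm3, at 0.952 to 0.937. Those most like Hmox1 were Tlr2, Slc37a1, Tab2, Lratd1 and Nedd9, at 0.858 to 0.833.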

How the data were processed

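Total RNA of bulk mouse liver, from samples with an RNA integrity number above 7, was sequenced by BGI Americas, per the labels' protocols. The authors deposited 1 table of whole-number counts per gene for each genotype, without normalization. The submitters' processing notes list the build GRCm39, STAR 2.5.3, edgeR 3.36.0, R 4.1.0, featureCounts 1.6.1, FastQC 0.11.5 and cutadapt 1.15. The sources used here do not give the annotation or the strand setting. PFOA is written there as 8 µm and was read as micromolar. The tables share 53599 symbols, of which 17159 had no count.

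Counts were tested here with edgeR 4.0.16 in R 4.3.3: TMM factors (0.895 to 1.08), the default filter by group, the robust quasi-likelihood test and Benjamini-Hochberg adjustment over all genes tested (14400 in hPPARa, 15334 in KO, 15811 jointly). Models held exposure and sex within each genotype, 4 groups for effects within a sex, and all 20 libraries for differences between genotypes. SE is the log2 fold change divided by the square root of F. Scripts were tested on simulated data. Alternatives were RLE factors, DESeq2 1.42.0, no filter, a replicate block, leaving out libraries, a joint fit, equal weight for the sexes and males only. Replicates differed by more than counting noise (chi-square per gene 7.43 to 42.5). Named genes are all members, up to 4 called genes per list with the smallest adjusted p, and the 5 genes most like Nqo1, Srxn1 and Hmox1. Aox1 in KO, Mafg in hPPARa and the cell type markers named were chosen after their values were seen. The members and lists, and the motifs, were chosen with earlier results of these data known. Deposited counts limit precision to counting and sample error at 14973673 to 17953860 per library. RefSeq sequences of GRCm38.p6 were used for upstream windows, and the count tables hold no coordinates.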

Additional observations from a re-analysis of the deposited data

How the results depend on the processing

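Of 1068 recomputed values of single members, 981 kept their direction and side of the threshold, 47 lost a call, 27 gained one and 13 changed sign. Of 834 values of other pathway genes, 705 kept both, 129 lost a call and 0 changed sign. The calls of Nqo1 and Srxn1 with PFOA held in each genotype under every alternative run, and that of Gclc under all but 1. The cause of each change was not tested.

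With DESeq2 the genes called were 927 for sex in hPPARa (501 by edgeR), 930 for sex in KO (523), 421 for PFOA by genotype (185), 920 for KO against hPPARa on vehicle (596), 138 for PFOA by sex in hPPARa (15) and 163 in KO (37). Without a filter on low counts these were 1088, 1322, 545, 1013, 323 and 381, and PFOA in KO females called 1490 (814). Members called by DESeq2 were 4 for sex in hPPARa (2) and 2 for PFOA by sex in KO (0). Without the filter they were 2 for PFOA by sex in KO, 4 in KO females (2) and 0 on vehicle (1).

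Leaving out the 3 KO libraries that carried both sexes' transcripts, PFOA in KO called 630 genes (2113) and 14 other pathway genes (24). Sex in KO then called 94 genes and 0 members (2), an alternative chosen after seeing the data. PFOA by genotype called 39 genes, the vehicle comparison 195, and Gclm in KO stood at -0.015 on the log2 scale. In males alone PFOA by genotype called 24 genes, and the vehicle comparison 110 genes and 0 members.

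The labels do not say whether replicate numbers pair the samples. The 22 pairs of libraries with the same number had correlations of -0.14 to 0.13, with 2 over 0.1. These 2 were the same value, 0.134, for hPPARa female PFOA and hPPARa male vehicle libraries, groups of 2 whose values mirror each other. The 42 pairs with different numbers ran from -0.16 to 0.21, with 5 over 0.1. Of 19 libraries 6 correlated best with their own number. With so few libraries per group, these values cannot exclude a pairing. With a replicate block, PFOA called 3029 genes in hPPARa (3253) and 1485 in KO, 396 in KO females, and 10 for PFOA by sex in KO. Sex in KO called 206 genes and 1 member under the block, and the vehicle comparison 0 members. Hmox1 in KO was at 1.18 with the block, adjusted p 0.0633, and its p over all alternatives ran from 0.000516 to 0.146.

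Leaving out 1 library at a time, genes called ran from 1905 to 3889 for PFOA in hPPARa, 1401 to 2129 in KO, 468 to 1320 in hPPARa males, 796 to 3242 in hPPARa females, 635 to 1503 in KO males, 578 to 889 in KO females, 255 to 686 for sex in hPPARa, 127 to 609 for sex in KO, 67 to 239 for PFOA by genotype, 351 to 701 on vehicle, 4 to 27 for PFOA by sex in hPPARa and 8 to 32 in KO. PFOA in hPPARa fell lowest without hPPARa female PFOA replicate 1 (1905) or 2 (2070), and PFOA in KO without KO male PFOA replicate 2 (1401) or KO female vehicle replicate 1 (1407). Members called ran from 0 to 2 for sex in KO, 2 to 3 for sex in hPPARa, 3 to 4 for PFOA in either genotype and in hPPARa females, 3 to 5 in KO males, 2 to 3 in KO females and 0 to 1 on vehicle. The count of 5 in KO males came without KO female PFOA replicate 1, where Hmox1 was called at 1.21 (adjusted p 0.00594). Values that changed sign without 1 library were uncalled: G6pdx in hPPARa (-0.17 to 0.049), Nfe2l2 in KO (-0.021 to 0.065), Srxn1 (-0.071 to 0.34) and Osgin1 (-0.56 to 0.059) by genotype, Hmox1 (-0.23 to 0.51) and Gclm (-0.29 to 0.13) in hPPARa males and Gclm in KO males (-0.081 to 0.067).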
